A study of Homo sapiens with 6 samples.

Results

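Eph receptors, a family of receptor tyrosine kinases, and ephrins, their membrane-bound ligands, were measured by RNA sequencing in KYSE150 cells, an established human esophageal squamous cell carcinoma (ESCC) line. The genes described are 6 receptors (EPHA1, EPHA2, EPHA4, EPHB2, EPHB3 and EPHB4) and 4 ephrins (EFNA1, EFNA5, EFNB1 and EFNB2), taken by name. These genes were chosen with earlier results of these data known. They are 10 of the 22 Eph receptor and ephrin genes, in a table of 67140 Ensembl identifiers, and all 10 were found in it. The design had 2 groups with 3 libraries each. Cells of the shCtrl group carried a control short hairpin RNA, and cells of the shAC007128.1 group carried a hairpin against the long noncoding RNA AC007128.1. All cells were grown in the same RPMI medium with fetal bovine serum, and the study's methods describe lentiviral transduction and puromycin selection. One hairpin and one control hairpin in one cell line were compared, and because the labels' treatment note gives shAC007128.1 for all samples, groups were taken from sample titles and descriptions. The labels do not say that the 3 libraries of a group came from separate cultures, so p-values measure the spread between these libraries, which may be technical. The question was which transcripts change when AC007128.1 is targeted.

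Eph receptors bind ephrins on the surface of neighboring cells. Binding clusters the receptor and starts forward signaling through Src family kinases, adaptors and regulators of the cytoskeleton in the receptor-bearing cell, and reverse signaling in the ephrin-bearing cell. Class A ephrins are held in the membrane by a lipid anchor and bind mainly EphA receptors, while class B ephrins span the membrane and bind mainly EphB receptors, with EphA4 binding both classes. The system is known for cell repulsion, tissue boundaries and epithelial cell positioning, and EphA2 is abundant in many squamous carcinomas.

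Library totals ranged from 55764405 to 78610457 counts, and 3 counts, the smallest level taken as detectable, corresponded to 0.0373 to 0.0546 CPM, the count scaled to library size. This floor covers counting error only. Small values in the table cluster at or just above multiples of 4, so a count may not be a single read and the floor may be too low. AC007128.1 itself (ENSG00000229970, chromosome 7, 8262264 to 8344516, plus strand, hg38) had 69, 33 and 53 counts in shCtrl and 18, 37 and 15 in shAC007128.1. The library labelled shAC007128.1 replicate 2 lay inside the shCtrl range, and the difference did not pass the test (log2 fold change -0.77 ± 0.51 SE, edgeR adjusted p = 0.271). AC007128.1 shares 782 of its 1853 exonic bases (42.2%) with ICA1-AS1, ENSG00000272328 and ICA1, and reads of the overlap cannot be told apart here. These few counts do not decide whether the hairpin lowered AC007128.1. The paper reports by qPCR that its hairpin lowered AC007128.1 RNA. The squamous markers KRT5, TP63 and 10 others were all tested. Their summed level was 2930 to 3000 CPM in shCtrl and 4010 to 4720 CPM in shAC007128.1. Of the 12, 8 passed the test as higher and 1 as lower, beside 21.0% and 19.8% of all genes. The lower one was DSG3, with 202.7 and 95.35 CPM on average in shCtrl and shAC007128.1. TP63 did not pass, at 126 and 104.3 CPM (edgeR adjusted p = 0.4055). The 6 fibroblast markers summed to 15.3 to 16.1 CPM in shCtrl and 20.9 to 23.9 CPM in shAC007128.1, mostly COL1A1, which had 13.9 and 17.5 CPM on average, and LUM, which rose from 1.07 ± 0.411 to 4.71 ± 0.715 CPM (edgeR adjusted p = 0.00193), with COL1A2, COL3A1, DCN and PDGFRB under 1 CPM in every library. The 4 endothelial and 5 leukocyte markers summed to at most 3.11 CPM and 1.29 CPM. The part of the marker differences in the results below was not tested. In bulk RNA, fewer cells of a type and less RNA per cell cannot be told apart.

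Of 19254 genes tested with edgeR's quasi-likelihood test, 1073 were called higher in shAC007128.1 (5.57%) and 1945 lower (10.1%), where called means at least a 2-fold change together with a p of 0.05 or less after Benjamini-Hochberg adjustment. At the same adjusted p and any fold, 21.0% of genes passed as higher and 19.8% as lower. Fold changes moved with base composition. The median log2 fold change was 0.19 over the 3832 genes of lowest GC content and -0.22 over the 3831 of highest, against -0.02 over all genes tested, and a GC content correction raised the share of calls that were higher from 35.6% to 51.6%. For the 10 genes, values under that correction are given below where a call ended or a gene no longer passed. For other genes they are given only in part.

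The 250 bases before the RefSeq start site of 5 of the genes are printed here, because they are the genes whose difference the text turns on, namely the most abundant receptor, the called receptor, and the 3 ephrins with the smallest adjusted p. Strands are those of the genes, and the build is GRCh38.p14 (RefSeq). The windows are chr1:16156070-16156319 on the minus strand for EPHA2, chr1:22710589-22710838 on the plus strand for EPHB2, chr5:107670938-107671187 on the minus strand for EFNA5, chrX:68828771-68829020 on the plus strand for EFNB1 and chr13:106535663-106535912 on the minus strand for EFNB2. None holds an annotated exon base. Capitals mark matches, on either strand, to the letters searched: TGACTCA (AP-1), TGACGTCA (CRE, the cAMP response element), CCGGAAG (ETS), GGGCGG (SP1) and CATTCC (TEAD). Overlapping matches are merged.
EPHA2: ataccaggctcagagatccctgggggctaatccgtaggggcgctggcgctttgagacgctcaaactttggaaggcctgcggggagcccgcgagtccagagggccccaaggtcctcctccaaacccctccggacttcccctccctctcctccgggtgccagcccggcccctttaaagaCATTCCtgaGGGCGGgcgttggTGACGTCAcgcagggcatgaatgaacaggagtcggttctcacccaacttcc
EPHB2: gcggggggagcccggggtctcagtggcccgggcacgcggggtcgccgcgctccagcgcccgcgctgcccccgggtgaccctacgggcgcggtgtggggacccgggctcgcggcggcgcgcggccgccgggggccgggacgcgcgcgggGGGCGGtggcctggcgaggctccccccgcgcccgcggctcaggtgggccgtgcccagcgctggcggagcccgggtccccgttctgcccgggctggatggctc
EFNA5: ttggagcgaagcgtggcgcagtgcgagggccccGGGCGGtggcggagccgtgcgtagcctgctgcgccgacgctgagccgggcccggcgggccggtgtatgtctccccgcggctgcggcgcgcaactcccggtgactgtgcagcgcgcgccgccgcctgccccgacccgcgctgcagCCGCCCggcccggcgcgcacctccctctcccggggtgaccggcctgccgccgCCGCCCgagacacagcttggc
EFNB1: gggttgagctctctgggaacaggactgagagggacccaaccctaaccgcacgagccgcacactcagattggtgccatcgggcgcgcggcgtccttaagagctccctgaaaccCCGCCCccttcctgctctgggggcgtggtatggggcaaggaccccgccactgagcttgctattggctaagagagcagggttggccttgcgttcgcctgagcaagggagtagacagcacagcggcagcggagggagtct
EFNB2: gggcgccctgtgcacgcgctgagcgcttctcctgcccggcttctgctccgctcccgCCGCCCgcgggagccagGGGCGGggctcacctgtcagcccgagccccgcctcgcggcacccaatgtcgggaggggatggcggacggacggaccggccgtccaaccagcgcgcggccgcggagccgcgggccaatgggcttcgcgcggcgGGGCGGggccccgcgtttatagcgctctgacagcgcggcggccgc

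The GGGCGG letters were present before all 10 genes, and in 42.4% of 27305 such windows genome-wide. EPHA2 was the only one of the 10 with TGACGTCA, 51 bases upstream of the start (1.77% of all windows), and the only one with CATTCC, 73 bases upstream (11.9% of all windows). TGACTCA was found before 0 of the 10 genes (4.15% of all windows), and so was CCGGAAG (8.81%). A match describes letters and not a binding site, and no match says only that these letters are not in this window.

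EPHA2 was the most abundant of the genes and was lower in shAC007128.1. EPHA2 (ENSG00000142627, chromosome 1, 16124337 to 16156069, minus strand) encodes an EphA receptor of epithelial cells whose main ligand is ephrin-A1. Its level was 219.6, 224.5 and 211.6 CPM in shCtrl replicates 1, 2 and 3 and 167.7, 168.9 and 142.2 CPM in shAC007128.1. Every shAC007128.1 library was below every shCtrl library, and replicate 3 was the lowest of all. The means were 218.5 ± 6.55 and 159.6 ± 15.1 CPM (SD, n = 3 each), a 1.37-fold fall (log2 fold change -0.45 ± 0.08 SE, 95% interval -0.65 to -0.25, edgeR adjusted p = 0.00481). After GC content correction the difference was -0.09 on the log2 scale and no longer passed (edgeR adjusted p = 0.194). The exons of EPHA2 are 60.3% GC.

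EPHB2 was the only one of the 10 genes called, and it was lower. EPHB2 (ENSG00000133216, chromosome 1, 22710839 to 22921500, plus strand) encodes an EphB receptor known for positioning epithelial cells along the intestinal crypt. Its level was 38.88, 37.28 and 36.41 CPM in shCtrl and 17.91, 20.32 and 15.52 CPM in shAC007128.1, so the groups were far apart beside their own spread. The means of 37.5 ± 1.26 and 17.9 ± 2.40 CPM gave a 2.1-fold fall (log2 fold change -1.07 ± 0.12 SE, 95% interval -1.35 to -0.79, edgeR adjusted p = 0.000484). EPHB2 passed the adjusted p in all 16 alternatives, between -1.16 and -0.79 on the log2 scale. It was under the 2-fold limit after GC content correction (-0.79) and without shAC007128.1 replicate 3 (-0.98).

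EPHB4 moved the other way. EPHB4 (ENSG00000196411, chromosome 7, 100802565 to 100827523, minus strand) encodes the receptor that marks veins in vascular development, with ephrin-B2 as its ligand. It had 77.89, 79.82 and 80.75 CPM in shCtrl and 119.5, 130.9 and 88.58 CPM in shAC007128.1. All shAC007128.1 libraries were higher, but replicate 3 was much nearer to shCtrl than the other two. The fold was 1.42 (79.5 ± 1.46 against 113.0 ± 21.9 CPM, log2 fold change 0.51 ± 0.14 SE, edgeR adjusted p = 0.0239). The adjusted p was above 0.05 without any one of the 3 shCtrl libraries, without shAC007128.1 replicate 1 and without replicate 2 (0.0647 to 0.0785), and with no low-count filter (0.0526).

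EPHA1 rose slightly. EPHA1 (ENSG00000146904, chromosome 7, 143390289 to 143408856, minus strand), an epithelial EphA receptor, had 16.52, 15.89 and 17.35 CPM in shCtrl and 22.29, 21.15 and 19.41 CPM in shAC007128.1. The groups did not overlap (log2 fold change 0.34 ± 0.10 SE, edgeR adjusted p = 0.0359). The adjusted p rose above 0.05 in 9 of 16 alternatives, among them DESeq2 (0.0732) and leaving out any library but shAC007128.1 replicate 3 (0.0772 to 0.125).

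EPHB3 and EPHA4 did not pass the test. EPHB3 (ENSG00000182580, chromosome 3, 184561785 to 184582408, plus strand), which acts with EphB2 in the intestinal crypt, had 6.424, 6.092 and 6.648 CPM in shCtrl and 9.98, 8.32 and 6.881 CPM in shAC007128.1. Its groups did not overlap, yet the spread within shAC007128.1 was wide (log2 fold change 0.39 ± 0.17 SE, 95% interval -0.004 to 0.79, edgeR adjusted p = 0.105). It passed after GC content correction (0.79, adjusted p = 0.00212) and without shAC007128.1 replicate 3 (0.51, adjusted p = 0.0318). EPHA4 (ENSG00000116106, chromosome 2, 221418027 to 221574202, minus strand), the receptor that binds both ephrin classes, was low, with 74, 36 and 30 counts in shCtrl and 9, 33 and 52 in shAC007128.1. The groups overlapped, and the interval of the log2 fold change, from -1.70 to 1.31, covers large differences in either direction (edgeR adjusted p = 0.831). An antisense noncoding gene, ENSG00000272944, shares 353 exonic bases with EPHA4, and the use of strand in counting was not given. That gene had 25, 50 and 44 counts in shCtrl and 4, 0 and 0 in shAC007128.1. It was called lower (log2 fold change -4.40, edgeR adjusted p = 0.0122).

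**Figure D1:**
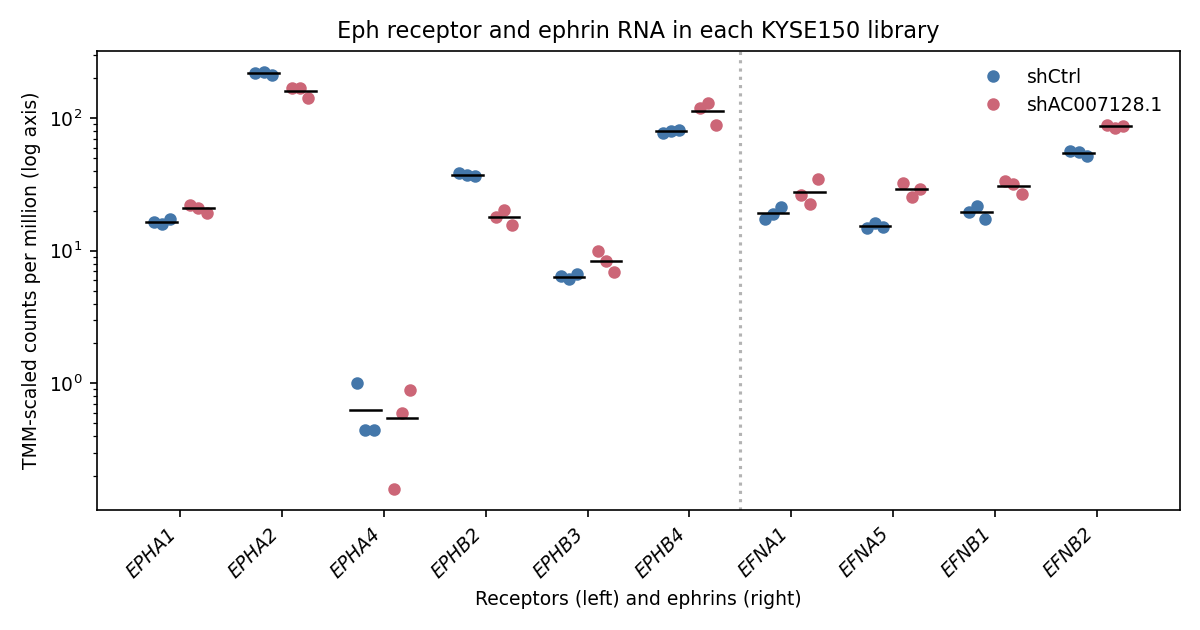
Level of each of the 10 Eph receptor and ephrin genes in every library, in CPM on a log axis, with points for libraries and bars for group means, by group. EPHA2 and EPHB2 are the genes whose 3 shAC007128.1 points all lie below the shCtrl points, and EPHA4 is the only gene whose groups overlap.

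All 4 ephrins were higher in shAC007128.1. EFNB2 (ENSG00000125266, chromosome 13, 106489745 to 106535662, minus strand), which encodes ephrin-B2, the ligand that marks arteries, had 56.41, 55.28 and 51.75 CPM in shCtrl and 88.96, 84.42 and 87.98 CPM in shAC007128.1. The libraries of each group lay close together, with means of 54.5 ± 2.43 and 87.1 ± 2.39 CPM, and the groups were well apart. The rise was 1.60-fold (log2 fold change 0.68 ± 0.08 SE, 95% interval 0.50 to 0.85, edgeR adjusted p = 0.00048). EFNB2 shares 1822 of its 5005 exonic bases (36.4%) with the antisense noncoding gene ENSG00000284966, whose level was 0.582 ± 0.248 CPM in shCtrl and 1.24 ± 0.289 CPM in shAC007128.1. Without strand in the counting, reads of the overlap cannot be told apart.

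EFNA5 had the largest rise of the 10 genes. EFNA5 (ENSG00000184349, chromosome 5, 107376894 to 107670937, minus strand) encodes ephrin-A5, known from axon guidance, where it repels growing axons. It had 14.77, 16.22 and 15.01 CPM in shCtrl and 32.36, 25.61 and 29.35 CPM in shAC007128.1. Its lowest shAC007128.1 library was far above its highest shCtrl library. The rise was 1.90-fold (log2 fold change 0.92 ± 0.12 SE, 95% interval 0.65 to 1.2, edgeR adjusted p = 0.000857), just under the 2-fold limit, and it was past that limit without shAC007128.1 replicate 2 (1.01).

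EFNB1 rose 1.59-fold. EFNB1 (ENSG00000090776, chromosome X, 68829021 to 68842160, plus strand) encodes ephrin-B1, a ligand of EphB2 and EphB3 whose loss causes craniofrontonasal syndrome. It had 19.45, 21.57 and 17.35 CPM in shCtrl and 33.75, 32.11 and 26.73 CPM in shAC007128.1, with no overlap (log2 fold change 0.67 ± 0.13 SE, edgeR adjusted p = 0.00595). After GC content correction the log2 fold change was 1.03. EFNA1 (ENSG00000169242, chromosome 1, 155127876 to 155134899, plus strand), which encodes ephrin-A1, had 17.32, 18.95 and 21.26 CPM in shCtrl and 26.19, 22.50 and 34.97 CPM in shAC007128.1. Its lowest shAC007128.1 library was just above its highest shCtrl library, and shAC007128.1 replicate 3 was the highest of all (log2 fold change 0.54 ± 0.18 SE, edgeR adjusted p = 0.0430). The adjusted p of EFNA1 rose above 0.05 in 8 of 16 alternatives, and without shAC007128.1 replicate 3 the log2 fold change was 0.34 (adjusted p = 0.0833).

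Counted together, 6 of the 10 genes passed the adjusted p as higher (EPHA1, EPHB4 and the 4 ephrins), 2 as lower (EPHA2 and EPHB2) and 2 did not pass, beside 21.0% and 19.8% of all genes. With the 2-fold limit, 0 were called higher (5.57% of all genes) and 1 lower (10.1%). Groups did not overlap for 7 genes in the higher direction, against 27.0% of all genes tested, and for 2 in the lower direction, against 28.2%. The median log2 fold change was 0.45 over the 10 genes and -0.02 over all genes tested. GC content correction moved the log2 fold change of EPHA1 to 0.68, of EPHB4 to 0.87, of EFNA1 to 0.83 and of EFNB2 to 0.88. Then 7 genes passed as higher and 1 as lower. Over all genes, the corrected fit called 1571 higher and 1476 lower, and the share passing at any fold was not taken. Without the library labelled shAC007128.1 replicate 2, whose AC007128.1 level lay inside the shCtrl range, 4 genes passed as higher and 2 as lower. EPHA1 and EPHB4 no longer passed. Over all genes, that fit called 1050 higher and 1961 lower, and the share passing was not taken. Within the shAC007128.1 group, replicate 3 was the lowest library for EPHA1, EPHA2, EPHB2, EPHB3, EPHB4 and EFNB1 and the highest for EFNA1 and EPHA4.

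**Figure D2:**
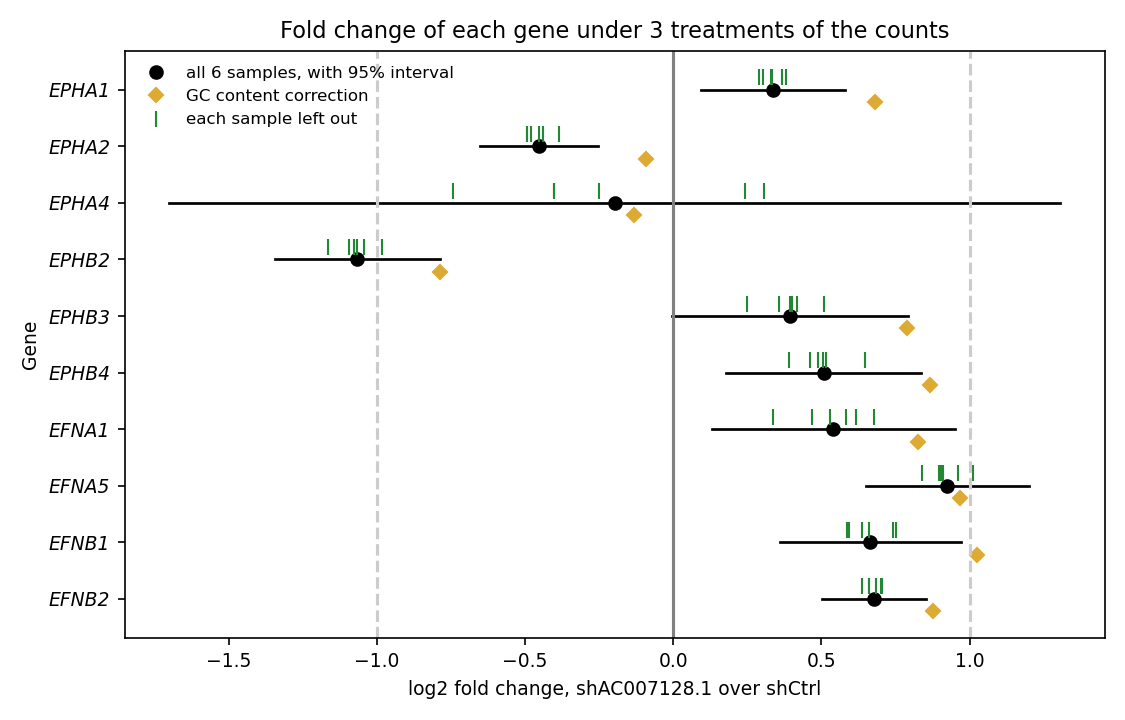
Log2 fold change (shAC007128.1 over shCtrl) of the 10 genes from edgeR, with circles for all 6 libraries, bars for the 95% interval, diamonds for the value after GC content correction, ticks for each library left out and dashed lines at the 2-fold limit. EPHB2 lies lowest at -1.07 and EFNA5 highest at 0.92, and EPHA2 moves from -0.45 to -0.09 under the correction.

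Levels of different genes were compared per kilobase of exon (RPKM, here CPM divided by exon length). In shCtrl the order was EPHA2 (52.8 ± 1.58 RPKM), EPHB4 (12.3 ± 0.226), EFNB2 (10.9 ± 0.485), EFNA1 (8.86 ± 0.914), EFNB1 (5.89 ± 0.639), EPHA1 (3.53 ± 0.156), EPHB2 (3.00 ± 0.1), EFNA5 (2.67 ± 0.136), EPHB3 (1.41 ± 0.0618) and EPHA4 (0.0839 ± 0.0433), and the library ranges of no 2 neighbors overlapped. With the longest transcript in place of all exons, EFNA1 stood at 12.3 RPKM in shCtrl, above EFNB2. In shAC007128.1 EPHA2 was still the highest at 38.5 ± 3.64 RPKM, while EPHB4 (17.6 ± 3.40) and EFNB2 (17.4 ± 0.478) overlapped in their libraries. EFNA5 (5.08 ± 0.589) overlapped with EPHA1 (4.46 ± 0.309), and EPHB3 (1.85 ± 0.342) overlapped with EPHB2 (1.43 ± 0.192), which had been the higher one of the pair in shCtrl.

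Outside the 10 genes, the family has 12 more members, of which 6 were tested. EPHA10, a receptor without kinase activity, was the only one called, with 6.888, 10.88 and 10.3 CPM in shCtrl and 4.234, 4.351 and 4.008 CPM in shAC007128.1 (log2 fold change -1.16 ± 0.20 SE, edgeR adjusted p = 0.00348). Its groups did not overlap, although shCtrl replicate 1 was well below the other controls, and the log2 fold change was -0.72 after GC content correction. EFNA2, an ephrin of low abundance here, had 0.599 ± 0.187 CPM in shCtrl and 0.0925 ± 0.105 CPM in shAC007128.1, and missed the threshold (log2 fold change -2.66 ± 0.91 SE, edgeR adjusted p = 0.0515), while DESeq2 gave an adjusted p of 0.0142. EFNA3 (20.1 ± 0.658 against 16.3 ± 4.49 CPM, adjusted p = 0.273) and EFNA4 (5.77 ± 0.761 against 5.06 ± 0.830 CPM, adjusted p = 0.458) did not pass, and both share exonic bases with the readthrough gene EFNA4-EFNA3. EPHA3 (adjusted p = 0.866) and EFNB3 (adjusted p = 0.801) were low, at under 1 CPM in all libraries. EPHA5, EPHA6, EPHA7, EPHA8, EPHB1 and EPHB6 were too low to test, and EPHA7 had 0 counts in all 6 libraries. Over all 22 family genes, 16 were tested, 0 were called higher and 2 lower, and 6 passed as higher and 3 as lower at any fold, beside 5.57% and 10.1% called and 21.0% and 19.8% passing over all genes.

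The make-up of the receptor and ephrin pools differed between groups. Summed over all Eph receptors, the level was 74.25, 75.81 and 73.06 RPKM in shCtrl and 68.00, 69.78 and 55.64 RPKM in shAC007128.1. Summed over all ephrins, it was 42.47, 45.48 and 42.64 RPKM in shCtrl and 60.82, 54.50 and 56.32 RPKM in shAC007128.1. Without GC content correction, every shAC007128.1 library was below every shCtrl library in the receptor sum and above it in the ephrin sum. After GC content correction, an alternative chosen for the sums after seeing the data and run over the 8 tested receptors and 8 ephrins, the direction of the receptor sum turned, with 65.49, 67.12 and 63.95 RPKM in shCtrl and 71.71, 73.70 and 73.05 RPKM in shAC007128.1, while the ephrin sum was still higher (39.4 ± 1.57 against 62.7 ± 4.78 RPKM). EPHA2 made up 71.0 ± 0.893% of the receptor sum in shCtrl and 59.9 ± 1.66% in shAC007128.1, and EPHB4 16.6 ± 0.487% and 27.1 ± 2.21%. EPHB2 went from 4.03 ± 0.135% to 2.22 ± 0.111%. Among ephrins, EFNB2 made up 25.0 ± 1.31% and 30.5 ± 1.08%, EFNA5 6.14 ± 0.0767% and 8.85 ± 0.578%, and EFNA3 23.8 ± 0.474% and 14.6 ± 3.66%. These shares restate the levels above and were not tested on their own.

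**Figure D3:**
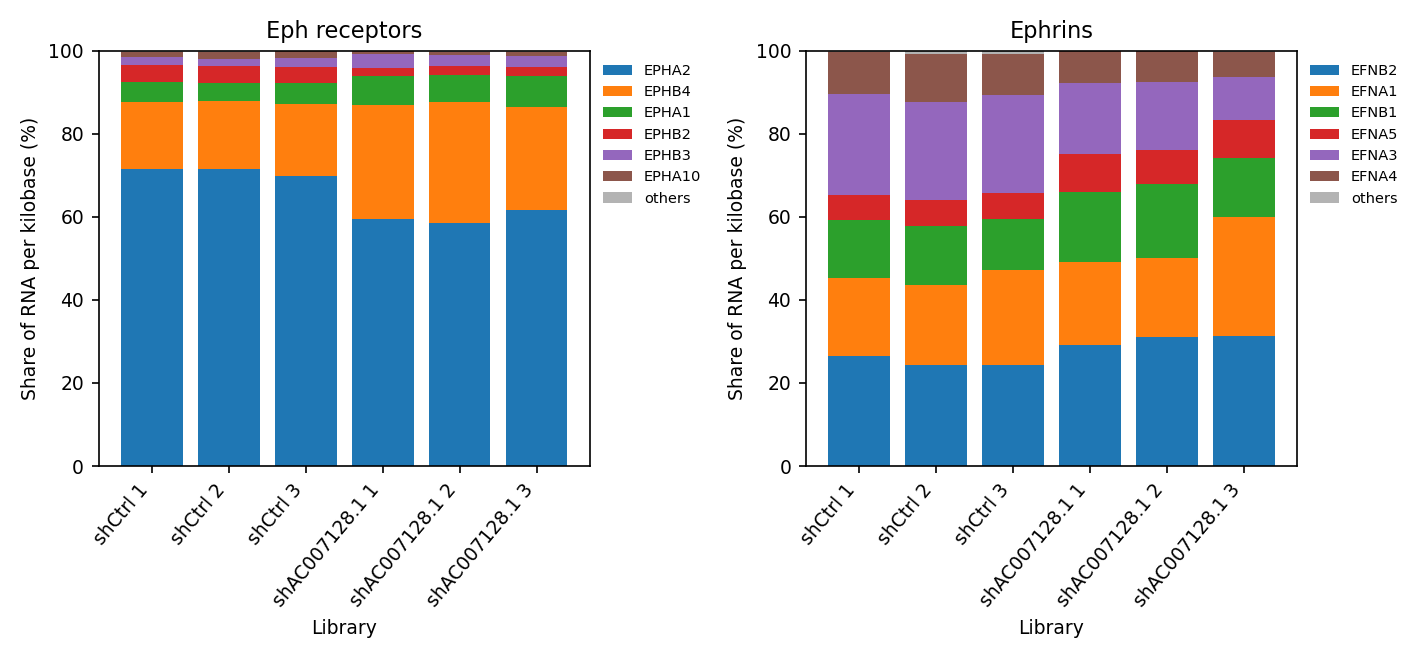
Share of each gene in the summed level per kilobase (percent) of all Eph receptors and of all ephrins, as 1 stacked bar for each library. EPHA2 holds about 71.0% of the receptor sum in shCtrl and 59.9% in shAC007128.1, and the EPHB4 share is larger in each shAC007128.1 library.

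Receptors were set against a ligand they bind as a log2 ratio of levels per kilobase within each library, which needs no scaling between libraries. The EPHB2 to EFNB1 ratio was -0.92, -1.13 and -0.85 in shCtrl and -2.84, -2.58 and -2.71 in shAC007128.1. All shAC007128.1 libraries were lower, by 1.74 on average, from 0.511 to 0.153 EPHB2 per EFNB1 on a linear scale. The EPHA2 to EFNA1 ratio was 2.73, 2.63 and 2.38 in shCtrl and 1.74, 1.97 and 1.09 in shAC007128.1, also without overlap, from 5.98 to 3.03 EPHA2 per EFNA1. Both differences had a two-sided exact permutation p of 0.1, the smallest that 3 against 3 libraries can give, and 0.3 after adjustment over the 6 pairs. This permutation test therefore cannot bring any ratio past 0.05 with 3 libraries a group. The EPHB4 to EFNB2 ratio was 0.10, 0.17 and 0.28 in shCtrl and 0.06, 0.27 and -0.35 in shAC007128.1, with overlap (exact permutation p = 0.4). The EPHB3 to EFNB1 ratio differed by -0.29 (exact permutation p = 0.2), and the ratios of EPHA4 to EFNA5 and to EFNB2 (exact permutation p = 0.3 and 0.4) rest on the few EPHA4 counts.

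**Figure D4:**
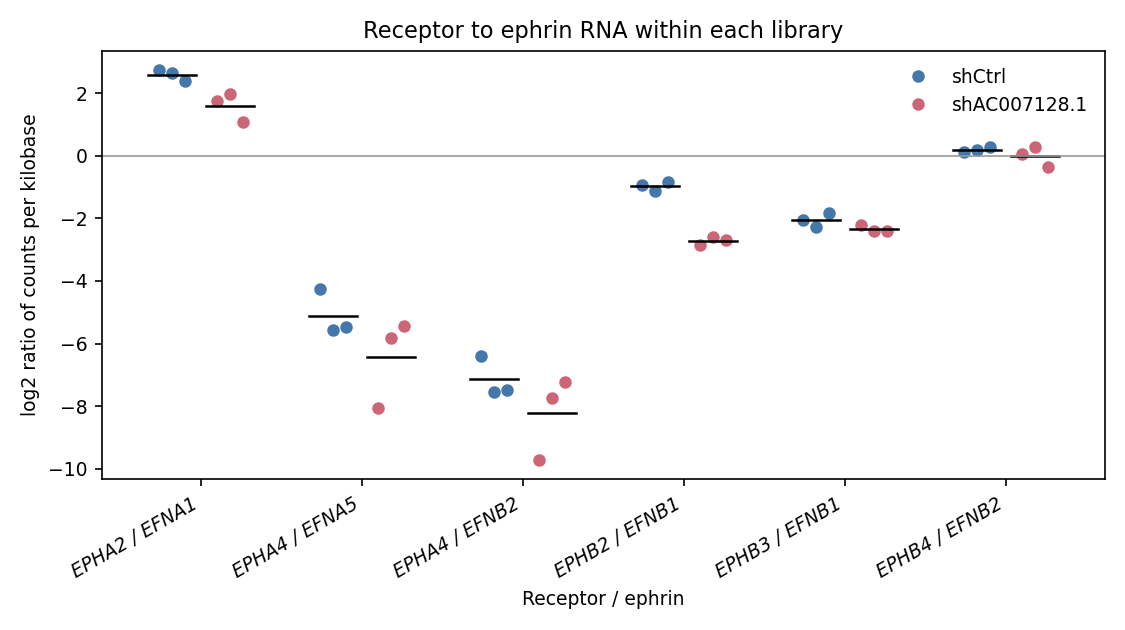
Log2 ratio of receptor to ligand level per kilobase in each library for the 6 pairs, with points for libraries and bars for group means, by group. The EPHB2 to EFNB1 and EPHA2 to EFNA1 pairs are those in which all shAC007128.1 libraries lie below all shCtrl libraries, at a permutation p of 0.1 each.

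Genes that act with Eph receptors and ephrins were taken from lists written by hand. All gene lists used here were chosen with earlier results of these data known, so counts over them are descriptive. Of 82 such genes 76 were tested, 5 were called higher and 1 lower (5.57% and 10.1% of all genes), and 35 passed as higher and 14 as lower at any fold (21.0% and 19.8% of all genes), with a median log2 fold change of 0.22. Among 27 tested adaptors and kinases, 11 passed as higher and 3 as lower, beside the same background. The Src family kinases YES1 and FYN, which carry signals from Eph receptors, moved in opposite directions. YES1 had 43.05, 49.01 and 47.14 CPM in shCtrl and 86.83, 180.3 and 218.2 CPM in shAC007128.1 (log2 fold change 1.8 ± 0.30 SE, edgeR adjusted p = 0.00307), with shAC007128.1 replicate 1 far below the other two. FYN had 13.24, 13.28 and 12.2 CPM in shCtrl and 2.651, 4.114 and 4.989 CPM in shAC007128.1 (log2 fold change -1.72 ± 0.23 SE, edgeR adjusted p = 0.00112). PIK3R1, a regulatory subunit of PI3 kinase, rose from 11.2 ± 2.66 to 30.9 ± 3.93 CPM (log2 fold change 1.46 ± 0.19 SE, edgeR adjusted p = 0.000906).

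Among 26 tested genes that regulate the cytoskeleton, 18 passed as higher and 2 as lower, with a median log2 fold change of 0.56, beside 21.0% and 19.8% of all genes. The guanine nucleotide exchange factors VAV3 (17.2 ± 1.89 to 34.5 ± 1.24 CPM, log2 fold change 1.004, edgeR adjusted p = 0.000468) and TIAM1 (30.4 ± 6.16 to 72.8 ± 13.8 CPM, log2 fold change 1.26, edgeR adjusted p = 0.00176), which activate Rac, were the ones called. VAV3 sat at the 2-fold limit, between 0.91 and 1.06 on the log2 scale over its 16 alternatives, and lost its call with DESeq2 (0.98), with library size only (0.93) and in others, always past the adjusted p. Of 10 tested genes of reverse signaling, 4 passed as higher and 2 as lower, beside the same 21.0% and 19.8%, and GRIP1, a PDZ protein that binds ephrin-B tails, was called, rising from 1.23 ± 0.245 to 6.31 ± 0.467 CPM (log2 fold change 2.35 ± 0.20 SE, edgeR adjusted p = 0.00017).

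Genes that cut or dephosphorylate Eph receptors and ephrins went mostly the other way, with 2 of 13 tested passing as higher and 7 as lower, a median log2 fold change of -0.22, and 0 called in either direction. Over all genes 21.0% passed as higher and 19.8% as lower, and 5.57% and 10.1% were called. The genes named from this list were chosen after their values were seen. The sheddase ADAM17 fell from 232.8 ± 7.23 to 131.2 ± 7.16 CPM (log2 fold change -0.83 ± 0.07 SE, edgeR adjusted p = 0.000154). NCSTN, a subunit of gamma-secretase, fell from 76.1 ± 2.16 to 53.6 ± 2.41 CPM (edgeR adjusted p = 0.00177). The receptor phosphatases PTPRF (1407 ± 20.03 to 881.6 ± 59.4 CPM, edgeR adjusted p = 0.000235) and PTPRK (67.2 ± 3.45 to 123.0 ± 10.9 CPM, edgeR adjusted p = 0.000361) moved in opposite directions. ADAM10, which cleaves ephrins on receptor binding, had 128.4 ± 2.94 and 120.2 ± 6.25 CPM and did not pass (edgeR adjusted p = 0.326). It passed as lower after GC content correction (log2 fold change -0.22, edgeR adjusted p = 0.0214).

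Among 40 other receptor tyrosine kinases, 25 were tested, 2 were called higher and 2 lower, and 8 passed as higher and 5 as lower, with a median log2 fold change of -0.03. Over all genes 5.57% and 10.1% were called and 21.0% and 19.8% passed. EGFR, the epidermal growth factor receptor, fell from 1625, 1632 and 1616 CPM in shCtrl to 606.2, 607.1 and 658.4 CPM in shAC007128.1 (log2 fold change -1.38 ± 0.06 SE, edgeR adjusted p = 1.60e-05). FGFR3, a fibroblast growth factor receptor, rose from 5.55 ± 1.62 to 20.3 ± 2.14 CPM (log2 fold change 1.87, edgeR adjusted p = 0.000807). NTRK2, a neurotrophin receptor, rose from 0.128 ± 0.0600 to 0.948 ± 0.156 CPM (edgeR adjusted p = 0.00274), and PDGFRB fell from 0.470 ± 0.146 to 0.154 ± 0.0753 CPM (edgeR adjusted p = 0.0474), both at low levels. PDGFRB lost its call in 11 of its 14 alternatives, among them GC content correction (log2 fold change -1.30, edgeR adjusted p = 0.0813).

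As a description of genes patterned like EPHA2, the 5 of 12434 genes with the highest Pearson correlation of log2 CPM with it over the 6 libraries were PMEPA1 (r = 0.9996), ANKS6, VEGFB, ITGA5 and RNF215 (r = 0.998). The libraries fall into the 2 groups compared, so such a correlation mostly restates that these genes fell too. PMEPA1, whose product restrains TGF-beta signaling, had a log2 fold change of -0.90, and ITGA5, the fibronectin receptor subunit, of -0.71.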

How the data were processed

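KYSE150 cells were sequenced as 3 shCtrl and 3 shAC007128.1 libraries, prepared with the TruSeq kit from poly-A RNA. The authors mapped the reads to hg38 with TopHat, and the submitters' processing notes name CASAVA 1.8, TopHat2 2.0.6 and the builds GRCh38 and mm10. The table the authors deposited gives an estimated count for each Ensembl gene and library, as unnormalized whole numbers; the counting program, annotation and use of strand are not given in the sources used here. Small values cluster at or just above multiples of 4. All sample columns were mapped by name (0 unmapped).

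Genes were filtered with filterByExpr (47886 removed), scaled by TMM (0.967 to 1.04) and tested with edgeR 4.0.16 (glmQLFit, glmQLFTest) in R 4.3.3, with p-values adjusted by Benjamini-Hochberg over all 19254 genes tested. A gene passed at an adjusted p of at most 0.05, and was called if its log2 fold change was also at least 1 in size. The SE was taken from the fold change and its F statistic. CPM use TMM-scaled library sizes, and levels per kilobase use the exon union of GENCODE v44 on hg38, which held 89.9% of the identifiers. Ratios were compared by a two-sided exact permutation test. Motifs were searched on both strands of 250-base windows from RefSeq. The fit was tested on simulated data.

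The genes and lists were chosen with earlier results of these data known. Named are all 22 family genes, the called list genes with the 3 smallest p in each direction, AC007128.1 and the 5 genes most like EPHA2; the text says where another gene was picked with its values in view. Alternatives were DESeq2 1.42.0, its size factors in edgeR, no low-count filter, a minimum of 10 counts per sample, scaling by library size alone, a replicate block, GC content correction with and without the block, counts divided by 4, thinned libraries, glmTreat against a fold of 1.5, no limit on fold change and each library left out.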

Additional observations from a re-analysis of the deposited data

How the results depend on the processing

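EPHB2, EFNA5, EFNB1, EFNB2 and EPHA10 kept their direction and an adjusted p of at most 0.05 in all 16 alternatives that test against no change, which leaves out glmTreat. EPHA2 did so in 14, and missed it in both GC content fits (-0.09 without and with the block). EPHB4 missed it in 6, EFNA1 in 8 and EPHA1 in 9 of 16. Of genes that did not pass, EPHA4 ranged from -0.74 to 0.31 when libraries were left out, turning higher without shCtrl replicate 1 and, at 0.24, without shAC007128.1 replicate 1. EPHA3 ranged from -0.26 to 1.06, turning lower without shCtrl replicate 3 and, at -0.12, without shAC007128.1 replicate 2, and EFNB3 from -0.11, without shAC007128.1 replicate 3, to 1.54. GC content correction turned EFNA3 to 0.068 and EFNA4 to 0.12 (0.055 and 0.13 with the block), and the shAC007128.1 minus shCtrl difference in the summed receptor level from -9.87 to 7.30 RPKM, an alternative chosen after seeing the data. The cause of these changes was not tested.

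Over all genes, 899 to 1571 were called higher and 1239 to 2246 lower, with 970 to 1068 and 1586 to 2023 when libraries were left out, and 1239 lower under GC content correction with the replicate block. GC content correction, with and without the block, called 1 of the 10 genes higher (EFNB1) and 0 lower. It called 1 family gene higher and 0 lower, and left 1 of the 10 past the adjusted p as lower. It called 8 pathway genes higher (9 with the block) and 1 other receptor tyrosine kinase lower. Over all genes it called 1571 higher and 1476 lower, or 1426 and 1239 with the block. With glmTreat, 1 of the 10 genes was called or passed in each direction, 1 family gene was called higher, and pathway genes were called 8 higher and 3 lower. DESeq2 called 4 family genes lower, adding EFNA2 and EPHA8 to EPHB2 and EPHA10. With no filter, 3 of the 10 genes passed as higher. At least 10 counts in every sample left 1 other receptor tyrosine kinase called higher and 1 lower, and 1 was called lower with counts divided by 4, with thinned libraries and with the replicate block. With no limit on fold change, 4041 genes were higher and 3820 lower, with 6 and 2 of the 10 genes, 6 family genes higher, 35 and 14 pathway genes, and 8 and 5 other receptor tyrosine kinases. Leaving out 1 library gave 3 to 6 of the 10 genes passing as higher, with 3 without each shCtrl library and without shAC007128.1 replicate 1. It gave 0 to 1 of the 10 and of the family called higher (1, EFNA5, without shAC007128.1 replicate 2), 0 to 1 of the 10 called lower (0 without shAC007128.1 replicate 3) and 1 to 2 other receptor tyrosine kinases called lower, PDGFRB being the one lost.

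Replicate numbers were not found to pair the libraries: deviations of same-numbered libraries correlated at 0.03, -0.03 and -0.03, and 2 of 6 libraries correlated best with their own number. With the replicate block, 977 genes were called higher and 1692 lower, and of the 10 genes only EPHA1 changed its side of the threshold (adjusted p = 0.0856). The differences in receptor to ligand ratio kept their sign in every alternative run for them, which did not include GC content correction. With the replicate block the EPHB2 to EFNB1 difference was -1.74 ± 0.252 (mean and SD of the differences between same-numbered libraries). This mean equals the difference without the block by arithmetic, so the block cannot test the sign or size of a ratio difference. The low-count filter left 6 family genes untested, while the wide interval of EPHA4 goes with the spread between its libraries (SE 0.64 on the log2 scale).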
